A study of Rattus norvegicus with 62 samples.

Results

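The receptors for glucocorticoids and the genes they control were followed in the amygdala of 62 male Long Evans rats. They are 5 genes of the 32545 in the count table: Nr3c1, the glucocorticoid receptor (ENSRNOG00000014096), Nr3c2, the mineralocorticoid receptor (ENSRNOG00000034007), and the target genes Fkbp5 (ENSRNOG00000022523), Sgk1 (ENSRNOG00000011815) and Per1 (ENSRNOG00000007387). They were chosen by their gene IDs, as a set of stress hormone receptors and response genes, by a rule that uses no measured value. The count table holds IDs and no symbols, so each symbol rests on the pairing given with the list.

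The study exposed rats of about 10 to 12 weeks of age to blast overpressure in a shock tube, with a single event of 74.5 kPa every 24 h over 72 h, as a model of blast-related mild traumatic brain injury. Sham rats were handled in the same way and received no overpressure. Tissue of the central and basolateral amygdala, punched from both hemispheres, came from a sub-acute cohort (behavior tested 1 to 1.5 months after exposure; 17 sham and 17 blast rats) or a chronic cohort (12 to 14 months; 14 sham and 14 blast rats), and the names of the cohorts are used for the time-points here. Each animal gave 1 library and was measured at 1 time-point only, so a difference between time-points is also a difference in age and in cohort. All animals, sham included, had been anesthetized with isoflurane, had passed through a battery of behavioral tests and were sacrificed 1 to 2 weeks after the last of them. Only males were used, and the tissue is a mixture of cell types.

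Corticosterone, the main glucocorticoid of the rat, acts in the brain through these 2 receptors. Both are steroid-bound transcription factors. The mineralocorticoid receptor binds the hormone with the higher affinity and is largely occupied at resting levels, whereas the glucocorticoid receptor is recruited when levels rise with stress or with the daily peak. The target genes are among those that activated receptors induce in many tissues. Fkbp5 encodes a co-chaperone that lowers the affinity of the glucocorticoid receptor for its hormone and so closes a feedback loop. Sgk1 encodes a kinase that regulates ion channels and transporters, and Per1 encodes a component of the circadian clock that also responds directly to glucocorticoids. In the amygdala these genes are studied for their part in fear, anxiety and the stress response.

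The deposited values are raw counts per gene, and the total per animal ran from 18220986 to 78585782, with the chronic libraries shallower (medians 42328495 in sham and 37460121 in blast) than the sub-acute ones (50123693 and 54959799). Of the 2 libraries under 25000000 counts, 1 was a chronic blast animal (CB149) and 1 a chronic sham animal (CS115). Both also stood apart in expression. On the first principal component of all genes after removal of group means, which took 21% of that variance, the lowest 4 animals were CS115, CB149, CB111 and CS144, 2 of each chronic group. The sign of the component is arbitrary and was set so that Nr3c1 correlates positively with it. Results that rest on these 4 animals are given with and without them below. Animal numbers began with 1 in all 28 chronic animals but in only 2 sub-acute sham and 5 sub-acute blast animals. Those of the other sub-acute animals began with 2, except that of AS601. The meaning of the numbers is not given in the sources used here, and time-point and number series could be told apart only through those 7 animals.

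The proximal promoters of the target genes are shown because Fkbp5 and Per1 varied together between animals and because activated receptors act on DNA. The RefSeq promoter table (GRCr8 assembly, a later build than the one the counts were made with) held windows for 4 of the 5 genes and none for Nr3c2. The 250 bases before the annotated start are given 5' to 3' on the strand of the gene for Fkbp5 (chr20:6543556-6543805, minus strand), Per1 (chr10:54304126-54304375, plus strand) and the Sgk1 window with a TATA motif closest to its start (chr1:24804832-24805081, minus strand). Capitals mark the TATA box (TATAAA), searched on both strands.
Fkbp5: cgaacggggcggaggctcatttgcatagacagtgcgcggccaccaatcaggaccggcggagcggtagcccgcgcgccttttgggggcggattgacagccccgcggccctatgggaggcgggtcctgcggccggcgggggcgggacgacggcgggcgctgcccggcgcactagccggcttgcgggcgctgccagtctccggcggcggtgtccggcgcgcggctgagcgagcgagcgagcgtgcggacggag
Per1: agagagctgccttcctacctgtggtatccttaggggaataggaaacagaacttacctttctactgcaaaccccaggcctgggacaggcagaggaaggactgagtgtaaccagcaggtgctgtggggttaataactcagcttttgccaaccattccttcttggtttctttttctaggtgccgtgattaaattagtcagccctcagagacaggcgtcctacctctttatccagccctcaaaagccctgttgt
Sgk1: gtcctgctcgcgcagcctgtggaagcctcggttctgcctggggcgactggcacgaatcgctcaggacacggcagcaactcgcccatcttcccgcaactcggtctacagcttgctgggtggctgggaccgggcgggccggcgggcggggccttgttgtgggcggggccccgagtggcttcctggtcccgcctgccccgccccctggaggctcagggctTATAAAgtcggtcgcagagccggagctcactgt

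The TATA motif lay 33 bases before the start in this Sgk1 window and 55 bases before it in another of the 3 Sgk1 windows. It was found in 12.9% of all 33469 promoter windows of the same length. The core hexamer of the glucocorticoid response element, TGTTCT, searched on both strands, occurred in 17.5% of all windows and in none of the 7 windows of the 4 genes. The palindrome of that element, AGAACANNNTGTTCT, occurred in 0.012% of all windows, the E-box CACGTG bound by clock factors in 5.59% and the cAMP response element TGACGTCA in 1.59%, and none of these was in the 7 windows either. These letters were therefore absent from these windows only, and elements elsewhere were not searched. The printed windows differed widely in base composition, with 76% GC in Fkbp5, 69.6% in this Sgk1 window and 49.2% in Per1, against a median of 51.2% over all windows. The other Sgk1 windows had 39.2% and 49.6%, so the contrast between genes depends on the window.

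Levels are given as CPM (counts divided by the library total and multiplied by a fixed factor), scaled between libraries by TMM, and as log2 CPM with a prior count of 2. Because gene lengths were not used, a level is compared between animals for the same gene and not between genes. All 5 genes passed the filter on low counts, which kept 16535 genes, and the lowest count of any of them in any animal was 654 (Nr3c2 in CB149). Counting error was thus small beside the spread between animals.

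**Figure D1:**
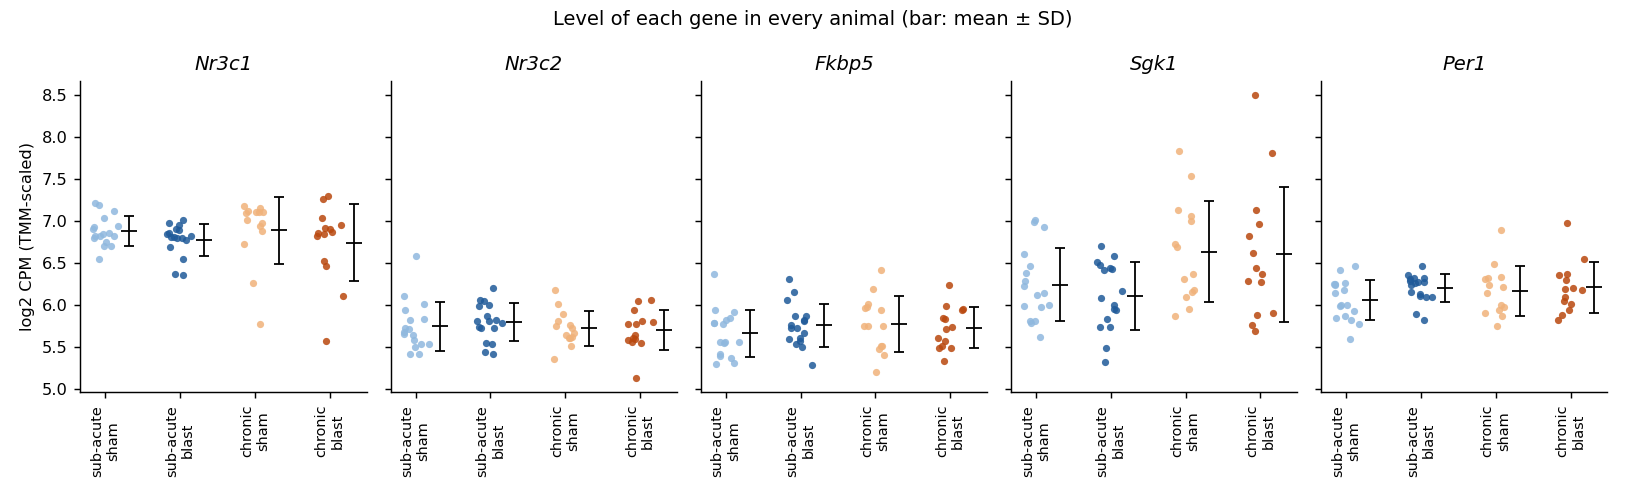
Each panel is 1 gene and each point 1 animal, with the group on the x axis and log2 CPM (TMM-scaled) on the y axis, and the bar beside each group is its mean with 1 SD. The groups overlapped for every gene. Low Nr3c1 values in 4 chronic animals and high Sgk1 values in the chronic groups stand apart from the rest.

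Neither receptor differed between blast and sham animals beyond the spread between animals. The glucocorticoid receptor gene Nr3c1 ran from 93.3 to 148.3 CPM in sub-acute sham (median 114.6), from 81.5 to 129.4 in sub-acute blast (112.5), from 54.5 to 144.4 in chronic sham (133) and from 47.6 to 158 in chronic blast (116). All 4 groups overlapped, and the lowest values in the chronic groups were those of CS115 and CB149. Mean log2 CPM was 6.88 ± 0.18 (SD, n = 17), 6.78 ± 0.19 (n = 17), 6.89 ± 0.40 (n = 14) and 6.74 ± 0.46 (n = 14) in the same order. The blast mean was the lower at both time-points, by log2 fold changes of -0.10 (95% interval -0.31 to 0.11; limma adjusted p = 0.817) and -0.14 (-0.38 to 0.093; adjusted p = 0.916). At the sub-acute time-point the difference had the opposite sign, 0.148, among the 2 sham and 5 blast animals whose numbers begin with 1, and it was -0.005 with surrogate variables in the model. The order of the means, from chronic sham and sub-acute sham to sub-acute blast and chronic blast, thus had no step larger than the spread. In bulk tissue, fewer cells of a type and less RNA per cell cannot be told apart.

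Without the 4 animals at the end of the component, the Nr3c1 means of the chronic groups were 7.03 ± 0.13 (n = 12) in sham and 6.89 ± 0.245 (n = 12) in blast. The difference between them was -0.14, as before, with a raw p of 0.0761 and a limma adjusted p of 0.889. Against the sub-acute sham animals the chronic sham animals then had a log2 fold change of 0.15 (raw p = 0.0358, adjusted p = 0.278), where it had been 0.009 with all animals. This alternative was chosen after seeing the data. The 4 animals, all chronic, were also those with the lowest Nr3c1 of all. Leaving them out therefore raises the chronic means and narrows their spread by itself. The change from 0.009 to 0.15 is thus no evidence of a difference with time. Leaving out single animals moved the chronic blast difference between -0.22 (without CS115; raw p = 0.0392, limma adjusted p = 0.548) and -0.056 (without CB149).

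The mineralocorticoid receptor gene Nr3c2 ran from 42.5 to 95.9 CPM in sub-acute sham (median 51.0), from 42.5 to 73.6 in sub-acute blast (55.8), from 40.9 to 72.2 in chronic sham (51.8) and from 34.9 to 66.6 in chronic blast (52.3). The highest value of all came from 1 sub-acute sham animal, AS208. Group means lay between 5.70 and 5.79 in log2 CPM, with SDs of 0.21 to 0.29, and neighbors in that order did not differ beyond their spread. Log2 fold changes of blast against sham were 0.046 (95% interval -0.12 to 0.21) at the sub-acute and -0.015 (-0.20 to 0.17) at the chronic time-point, with limma adjusted p of 0.885 and 0.985. As folds, these intervals were 0.921 to 1.16 and 0.871 to 1.12.

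Because both receptors were counted in the same library, the ratio of Nr3c2 to Nr3c1 counts in an animal does not depend on scaling between libraries. It reflects transcript length as well as level, so it was compared only between animals. The ratio ran from 0.343 to 0.894 in sub-acute sham (median 0.451), from 0.386 to 0.903 in sub-acute blast (0.486), from 0.351 to 0.835 in chronic sham (0.393) and from 0.317 to 0.807 in chronic blast (0.457). The highest ratios belonged to AS208 and AB239 in the sub-acute groups and to CS115 and CB111 in the chronic groups, and the latter pair are among the 4 animals named above. Blast animals had the higher mean log2 ratio at both time-points, by 0.149 at the sub-acute (p = 0.172 in a two-sided permutation test with 100000 resamples, adjusted p = 0.689, adjusted over 4 comparisons) and by 0.126 at the chronic time-point (p = 0.406, adjusted p = 0.812). With time the ratio differed by -0.032 in sham and -0.054 in blast (adjusted p = 0.812 for both). None of these differences was larger than the spread between animals, and without the 4 animals the adjusted p was 0.172 in all 4 comparisons. The other animals of the 4, CS144 (0.771) and CB149 (0.734), had the next highest ratios of their groups. Leaving out the 4 thus lowers both chronic means by itself, and the differences with time depend on them.

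**Figure D2:**
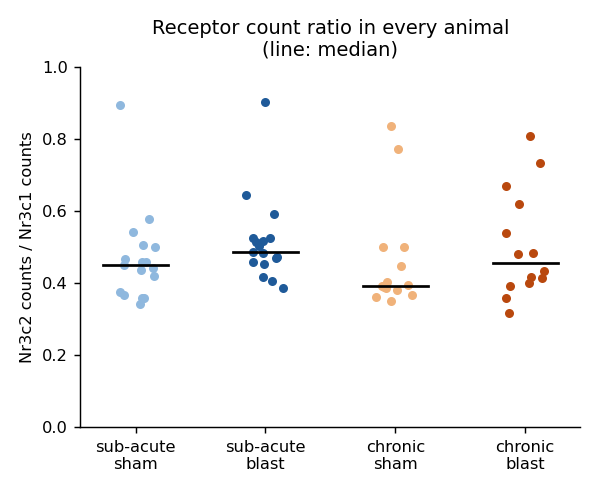
Ratio of Nr3c2 to Nr3c1 counts (y axis, linear from 0) in each animal of the 4 groups (x axis), with a line at the median. Medians were 0.451, 0.486, 0.393 and 0.457 from left to right, and the ranges overlapped almost completely.

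Of the target genes, Fkbp5 was the steadiest between groups. It ran from 39.1 to 82.2 CPM in sub-acute sham (median 47.2), from 39.0 to 79.5 in sub-acute blast (52.9), from 36.5 to 85.05 in chronic sham (53.7) and from 40.2 to 75.0 in chronic blast (52.7). Each group thus spanned about the same range. Mean log2 CPM was 5.66 ± 0.28 (SD, n = 17), 5.755 ± 0.25 (n = 17), 5.77 ± 0.335 (n = 14) and 5.73 ± 0.25 (n = 14), and the log2 fold change of blast against sham was 0.095 (95% interval -0.092 to 0.28; limma adjusted p = 0.813) at the sub-acute and -0.040 (-0.25 to 0.17; adjusted p = 0.966) at the chronic time-point. The chronic sham animal with the highest value was CS115.

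Per1 ran from 48.1 to 87.9 CPM in sub-acute sham (median 63.9), from 56.5 to 88.1 in sub-acute blast (76.8), from 53.5 to 118.5 in chronic sham (72.6) and from 56.4 to 125.8 in chronic blast (72.7). The highest chronic values were those of CS115 and CB149, the animals with the lowest Nr3c1. Among all comparisons of blast with sham, Per1 at the sub-acute time-point had the smallest raw p of the 5 genes, with means of 6.20 ± 0.17 (SD, n = 17) in blast and 6.06 ± 0.24 (n = 17) in sham. Its log2 fold change of 0.14 (SE 0.084, 95% interval -0.027 to 0.31) had a limma raw p of 0.0987 and an adjusted p of 0.77, and 12.3% of the genes tested had a smaller raw p. Without the 4 chronic animals, which enter through the shared estimate of spread, the raw p was 0.041 and the adjusted p 0.422. At the chronic time-point the difference was 0.036 (adjusted p = 0.966). Among the sub-acute animals with numbers that begin with 1, 2 sham and 5 blast, the Per1 difference had the opposite sign, -0.24. The time of day at sacrifice, on which transcripts of a clock gene depend, was not used here.

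Sgk1 had the widest range of the 5 genes and, in the main fit, the only difference near the threshold. It ran from 48.8 to 128.9 CPM in sub-acute sham (median 70.4), from 39.9 to 103.98 in sub-acute blast (67.8), from 58.5 to 227.5 in chronic sham (92.9) and from 51.5 to 362 in chronic blast (84.4). The 4 highest values of all animals were chronic, 2 of them blast (CB124 at 8.50 and CB136 at 7.81 log2 CPM) and 2 sham (CS127 at 7.83 and CS148 at 7.53), while the lower ends of the 4 groups overlapped. Mean log2 CPM was 6.24 ± 0.435 (SD, n = 17) in sub-acute sham, 6.11 ± 0.40 (n = 17) in sub-acute blast, 6.635 ± 0.605 (n = 14) in chronic sham and 6.60 ± 0.80 (n = 14) in chronic blast. Blast and sham did not differ beyond this spread, with log2 fold changes of -0.135 (95% interval -0.51 to 0.24; limma adjusted p = 0.856) at the sub-acute and -0.030 (-0.45 to 0.39; adjusted p = 0.986) at the chronic time-point. Without the chronic blast animal CB124, the chronic difference was -0.17. These intervals are the widest of the 5 genes, and at the chronic time-point the interval ran, as a fold, from 0.733 to 1.31.

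With time, Sgk1 was higher in the mean of the chronic animals by a log2 fold change of 0.39 in sham (SE 0.20, 95% interval -0.004 to 0.79; limma raw p = 0.0524, adjusted p = 0.285) and of 0.50 in blast (SE 0.20, interval 0.10 to 0.90; raw p = 0.015, adjusted p = 0.0785). Neither passed the threshold. In blast animals the call depended on the test. It was passed with edgeR's quasi-likelihood test (log2 fold change 0.69, adjusted p = 0.0159), DESeq2 (0.70, adjusted p = 0.00797), sample quality weights in limma (0.54, adjusted p = 0.046) and without the 4 animals at the end of the component (0.615, adjusted p = 0.0255). More of all genes were called under these settings too. The counts were 2143 with edgeR, 2312 with DESeq2 and 2056 with quality weights of 16535 genes, and 2220 of 16569 without the 4 animals. The main fit called 1609 of 16535. The Sgk1 call also depended on the chronic blast animal CB124. Without that animal the log2 fold change was 0.37 in limma (adjusted p = 0.174), 0.44 in edgeR (adjusted p = 0.0909) and 0.44 in DESeq2 (adjusted p = 0.0814), and the chronic blast mean was 6.46 ± 0.61 (SD, n = 13). Without CB121, the lowest chronic blast animal, or without CB139, the limma adjusted p was 0.0486 and 0.0441. Within the animals whose numbers begin with 1, the difference was 0.22 in sham and 0.42 in blast (adjusted p = 0.572 in blast), and with the number series as a covariate it was 0.39 in blast (adjusted p = 0.408). The part of the number series in the difference could not be told apart further with so few sub-acute animals of that series.

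**Figure D3:**
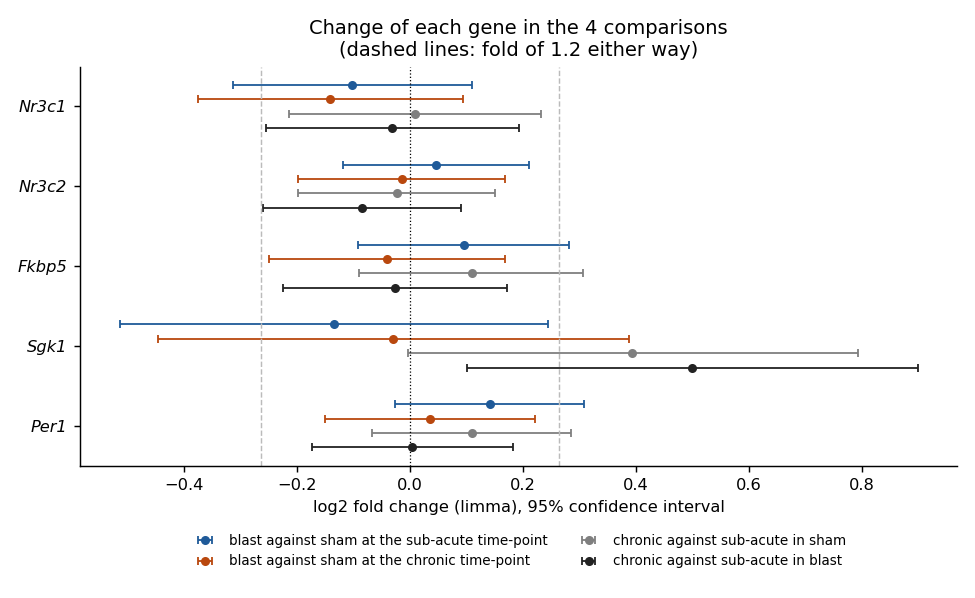
Log2 fold change (x axis) of each gene (y axis) in 4 comparisons, as the limma estimate with its 95% confidence interval, and dashed lines at a fold of 1.2 in either direction. All intervals cross 0 except that of Sgk1 in blast with time, 0.10 to 0.90.

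Counted together, 0 of the 5 genes had an adjusted p under 0.05 with a fold of at least 1.2 in any of the 4 comparisons, and 0 of 5 had an adjusted p under 0.05 for the interaction of treatment and time-point (limma, Benjamini-Hochberg adjustment over 16535 genes). For blast against sham, 0% of all genes tested were called at the sub-acute and 0% at the chronic time-point, with no gene below an adjusted p of 0.77 and 0.901. With edgeR and with DESeq2, 0 of the 5 were called in these comparisons too. At a raw p under 0.05, 0 of the 5 passed in either, where 5.18% and 5.04% of all genes did. The median log2 fold change over the 5 genes was 0.046 at the sub-acute and -0.030 at the chronic time-point, against 0 and 0.002 over all genes.

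Between time-points the background was larger. In sham, 1.55% of all genes were called and 18% had a raw p under 0.05, with 0 of the 5 genes in either count. In blast, 9.73% were called and 29.8% had a raw p under 0.05, and among the 5 genes only Sgk1 had such a raw p. Receptors and the other targets did not pass in these comparisons. In blast animals the log2 fold change with time was -0.031 for Nr3c1, -0.085 for Nr3c2, -0.026 for Fkbp5 and 0.004 for Per1, and in sham animals it was 0.009, -0.023, 0.109 and 0.109. The Nr3c1 value in blast had no stable sign, at 0.116 without the 4 animals, 0.055 without CB149 alone and 0.246 (raw p = 0.0366, adjusted p = 0.198) with the library total as a covariate. The median absolute log2 fold change of the 5 genes with time was 0.031 in blast, against 0.136 over all genes. In sham it was 0.109 against 0.111. For blast against sham it was 0.102 against 0.083 at the sub-acute and 0.036 against 0.081 at the chronic time-point. For the interaction, 0% of all genes were called and 5.56% had a raw p under 0.05, while the 5 genes had differences between -0.135 (Fkbp5) and 0.105 (Sgk1) with adjusted p of 0.91 to 0.98. The Sgk1 value was -0.034 without CB124.

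The spread between animals of a group differed between the genes. Sgk1 had the largest SD of log2 CPM of the 5 in each group, 0.435 and 0.40 in sub-acute sham and blast and 0.605 and 0.80 in chronic sham and blast. Between 74.9% and 87.1% of all genes had a smaller SD than Sgk1 in the same group. For Nr3c1 the SD was 0.18 and 0.19 in the sub-acute and 0.40 and 0.46 in the chronic groups, and without the 4 animals it was 0.13 and 0.245 in the latter. The SD of Nr3c2 lay between 0.21 and 0.29, and that of Fkbp5 between 0.25 and 0.335. Median SDs over all genes were 0.25, 0.22, 0.33 and 0.37 in the 4 groups. These are descriptions, and no test of spread was made.

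Variation between animals of the same group was shared between several of the genes. Over 62 animals with group means removed, 4 of the 10 pairs had an adjusted p under 0.05 (Pearson correlation, permutation within groups with 100000 resamples, two-sided, Benjamini-Hochberg adjustment over the 10 pairs). The pairs were Nr3c1 and Per1 (r = -0.605, adjusted p = 0.0002; Spearman rho = -0.355, adjusted p = 0.0154), Fkbp5 and Per1 (r = 0.464, adjusted p = 0.00145; rho = 0.509, adjusted p = 0.0006), Nr3c2 and Fkbp5 (r = 0.355, adjusted p = 0.0181; rho = 0.37, adjusted p = 0.0123), and Fkbp5 and Sgk1 (r = 0.30, adjusted p = 0.0492; rho = 0.337, adjusted p = 0.0192). By rank, 7 of the 10 pairs had an adjusted p under 0.05, these 4 together with Nr3c1 and Sgk1 (rho = 0.314, adjusted p = 0.0276), Nr3c2 and Sgk1 (rho = 0.281, adjusted p = 0.0413) and Sgk1 and Per1, described below. By Pearson r, 30.4% of all genes were at least as far from 0 with Nr3c1 as Per1 was. With Per1, 10.7% were at least as far from 0 as Nr3c1 was. For Fkbp5 and Sgk1 the shares were 34.4% with Fkbp5 and 14.5% with Sgk1. Correlations of this size were thus not particular to these pairs. Shares for the other pairs that passed by Pearson correlation are given below, and the share of all gene pairs that would pass was not computed. All points share the library of their animal, and so its depth and RNA quality.

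The inverse relation of Nr3c1 and Per1 rested largely on few animals. The 4 animals with the lowest Nr3c1, at 47.6 (CB149), 54.5 (CS115), 68.6 (CB111) and 76.9 CPM (CS144), were also the 4 with the highest Per1, at 125.8, 118.5, 93.4 and 89.7 CPM. They are the same 4 that lie at the end of the component. Leaving out animals that are extreme on both genes narrows the range, which by itself weakens r. Values without them therefore do not show that the relation is absent in the rest. Without CB149 and CS115, the animals farthest from the median of Nr3c1, r was -0.372, and without all 4 it was -0.184 (adjusted p = 0.211). It was -0.753 among the 35 animals with numbers that begin with 1 and -0.102 among the 26 with numbers that begin with 2. Within groups, as a description, r was -0.00481 in sub-acute sham, -0.393 in sub-acute blast, -0.717 in chronic sham and -0.844 in chronic blast.

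Fkbp5 and Per1, the pair of target genes whose promoters are printed above, rested less on those animals. Within groups, as a description, r was 0.369 in sub-acute sham, 0.292 in sub-acute blast, 0.923 in chronic sham and 0.106 in chronic blast, so it was uneven between groups. Over all animals the correlation was 0.383 without the 2 animals farthest from the median of Fkbp5 (AS237 and CS115), 0.445 without the 2 farthest on Per1 and 0.395 without the 4 animals of the component (adjusted p = 0.0115). It was 0.575 and 0.438 in the number series that begin with 1 and 2. With surrogate variables removed it was 0.193 and no longer passed (adjusted p = 0.379). As a description against the background, 11.9% of all genes had a correlation with Fkbp5 at least as far from 0 as that of Per1, and 31.1% had one with Per1 as far from 0 as that of Fkbp5. Nr3c2 and Fkbp5 kept a positive r of 0.306 and 0.364 in the number series, 0.38 without the 2 animals farthest on Nr3c2 and 0.426 without the 4 animals, but r was 0.029 with surrogate variables removed (adjusted p = 0.904) and no longer passed. Of all genes, 9.18% were at least as far from 0 with Nr3c2 and 24.8% with Fkbp5. Fkbp5 and Sgk1 had r of 0.405 and 0.0208 in the number series, so that relation did not hold within the second.

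Sgk1 and Per1 did not pass by Pearson correlation (r = 0.261, adjusted p = 0.0847) but did by rank (rho = 0.379, adjusted p = 0.0123). Without the 4 animals r was 0.479 (adjusted p = 0.0012), and with surrogate variables removed it was 0.625 (adjusted p = 0.0001). It was 0.184 and 0.428 in the number series. The 4 animals had high Per1 with Sgk1 between 58.6 (CB149) and 127.7 CPM (CS115), within the range of the rest.

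**Figure D4:**
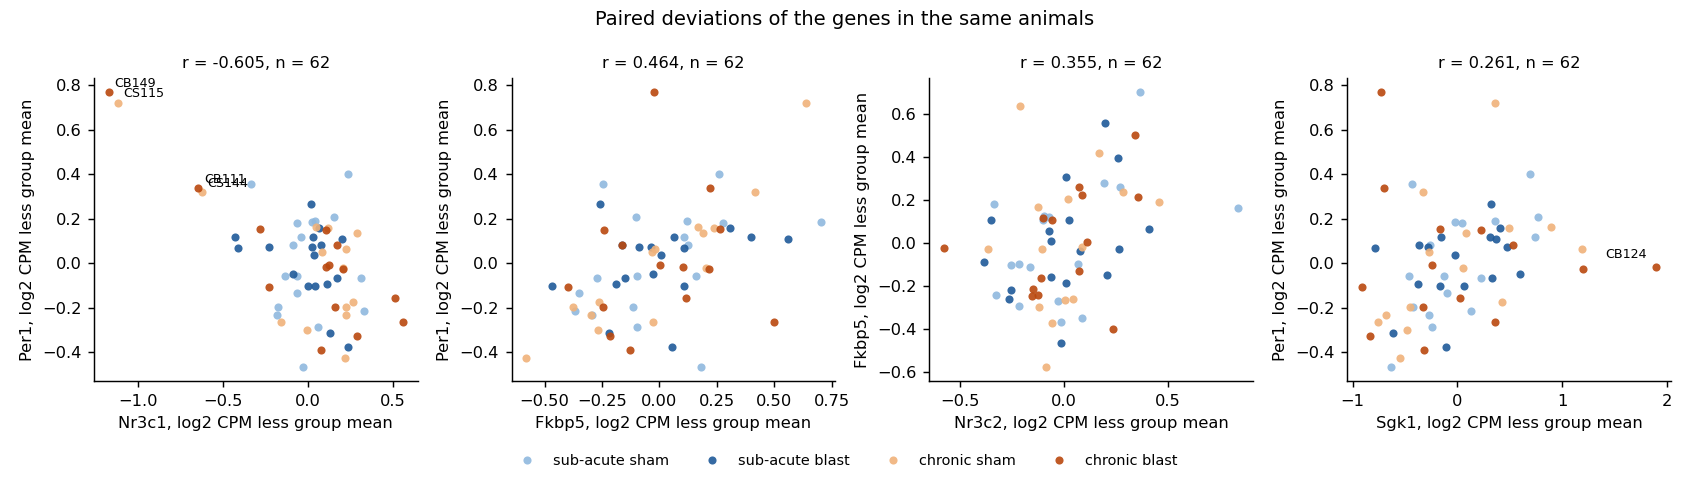
Each point is 1 of 62 animals, colored by group, with the deviation of log2 CPM from the group mean for 1 gene on the x axis and for another on the y axis. In the Nr3c1 and Per1 panel the labelled animals CB149, CS115, CB111 and CS144 lie at the end of the slope (r = -0.605 with and -0.184 without them), while in the Fkbp5 and Per1 panel r was 0.464 with and 0.395 without them.

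The 5 genes differed in how far they followed the leading axis of variation between animals. Nr3c1 had an r of 0.859 with the first principal component (rho = 0.581) and Per1 one of -0.702 (rho = -0.524), both with a permutation p of 1e-05, the smallest that 100000 resamples can give, and an adjusted p of 5e-05 over 10 correlations. Fkbp5 had an r of -0.436 (adjusted p = 0.0016), and Nr3c2 (0.20, adjusted p = 0.15) and Sgk1 (0.173, adjusted p = 0.341) did not follow it. Without CB149 and CS115 these values were 0.728 for Nr3c1, -0.523 for Per1 and -0.428 for Fkbp5. In the number series that begins with 2 they were 0.497, -0.368 and -0.409. The component was computed from all genes, these 5 included, so it is not independent of them. A leading component follows many genes by construction, and the share of all genes that would pass was not computed. Passing is therefore not shown to be particular to these genes.

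Over all animals, depth moved with both receptors and Per1 by Pearson correlation. Nr3c1 had an r of 0.514 with the log2 total count of the library (adjusted p = 0.00255), Nr3c2 one of 0.357 (adjusted p = 0.0123) and Per1 one of -0.343 (adjusted p = 0.0254), while by rank none of the 5 passed (adjusted p of 0.154 or more). Without CB149 and CS115 these were 0.165, 0.225 and 0.00309, so the relations of Nr3c1 and Per1 rest largely on these shallow libraries. The number series that begins with 2 holds neither animal. There r was -0.149 for Nr3c1, 0.403 for Nr3c2 and 0.145 for Per1. The Nr3c2 relation thus does not rest on those libraries alone. Fkbp5 had an r of 0.101 with depth over all animals (permutation adjusted p = 0.5). It had 0.298 without CB149 and CS115, and -0.0896 and 0.476 in the number series that begin with 1 and 2. The share of all genes that vary with depth was not computed. The part of depth or RNA quality in the levels of CB149 and CS115 was not tested.

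**Figure D5:**
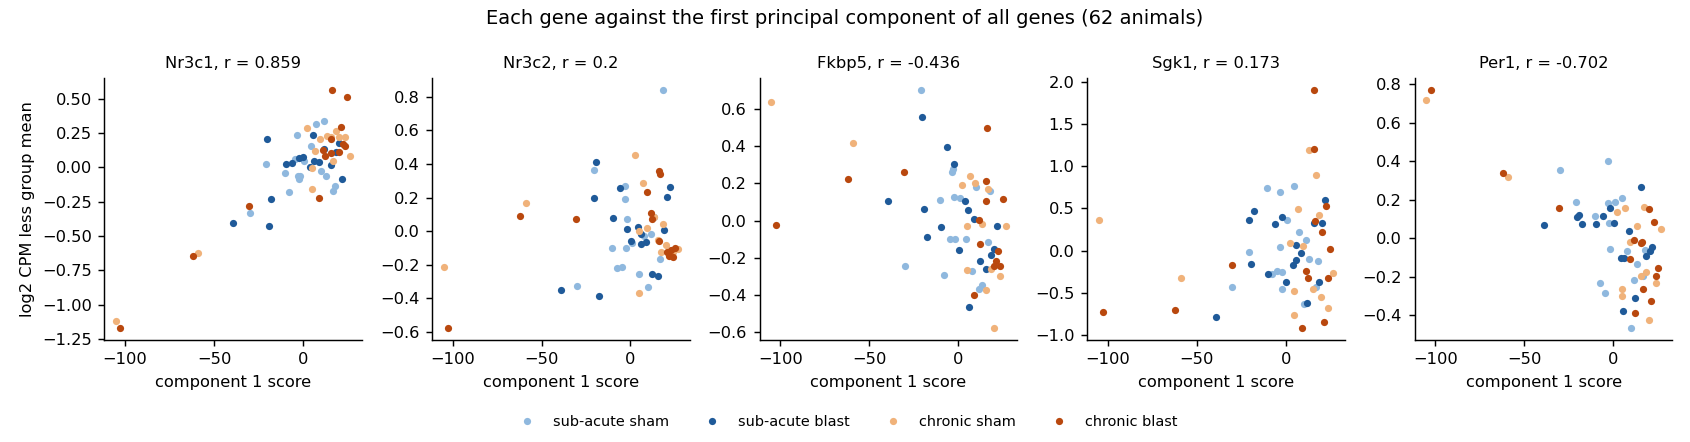
Deviation of each gene from its group mean in log2 CPM (y axis) against the score of the first principal component of all genes (x axis, no unit) in 62 animals colored by group. The sign of the component was set so that Nr3c1 rises along it (r = 0.859). Per1 (-0.702) and Fkbp5 (-0.436) then fall, and Nr3c2 and Sgk1 show little slope (0.20 and 0.173).

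The genes most like each of the 5 in pattern were looked up among the 16534 other genes tested, by the r of deviations over 62 animals and as a description. For Nr3c1 the nearest was ENSRNOG00000018075 (r = 0.943), and 41.2% of all genes had an r beyond 0.5 in either direction with it. For Fkbp5 the nearest was ENSRNOG00000006979 (r = 0.879), with 9.13% of genes beyond 0.5. The nearest genes of Per1, Sgk1 and Nr3c2 reached 0.807, 0.779 and 0.769, and 25.8%, 0.242% and 1.26% of genes lay beyond 0.5. Nr3c1 and Per1 thus varied with a large share of the genes measured, and Sgk1 and Nr3c2 with few.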

How the data were processed

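Ribosomal RNA-depleted stranded libraries of amygdala punches from 62 rats were sequenced on a HiSeq2500. Per the submitters' processing notes, STAR 2.4.2a, featureCounts 1.4.3-p1 and the Rnor 6.0 genome were used. The authors deposited raw counts per gene without normalization, and 2 columns of the table match no sample and were not used. The counting strand and the handling of multi-mapping reads are not given in the sources used here.

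The sample labels gave the groups, with "Acute" standing for the sub-acute time-point. No animals of a group agreed within sampling noise (over 454 pairs the lowest chi-square, averaged over genes, was 14.8, and sampling gives about 1). Totals from 18220986 to 78585782 counts set the precision. Counts were scaled by TMM (edgeR 4.0.16) and fitted with voom in limma 3.58.1 (R 4.3.3) to 4 group means over all animals, after edgeR's expression filter, with Benjamini-Hochberg adjustment over 16535 genes. A gene was called with an adjusted p under 0.05 and a fold of at least 1.2 in either direction. The interaction had no fold threshold. Correlations used log2 CPM (prior count 2) less the group mean, and ratios log2 of counts with 0.5 added. Both had permutation tests with 100000 resamples (numpy 2.4.6, scipy 1.17.1). The scripts were tested on simulated data.

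Alternatives were DESeq2 1.42.0, the quasi-likelihood test of edgeR, filters and scalings of other kinds, quality weights, the compared groups alone, the number series, the library total or 8 surrogate variables (sva 3.50.0) as covariates, and subsets of animals. Leaving out single animals or the 4 lowest on the component, and edgeR and DESeq2 without CB124, were chosen after seeing the data, as was the comparison of correlations between sham and blast. The rule for the 5 genes uses gene IDs and no measured value, but the genes and lists were proposed with earlier results of these data known. By rule all 5 genes are named, with the nearest gene by correlation to each and at most 2 IDs printed. The gene table at hand paired 0 of the IDs with symbols, so further lists of glucocorticoid targets, receptor cofactors, corticotropin-releasing hormone genes, clock genes and cell type markers were not analysed here, and the labelled tissue was not checked against markers. Promoter sequences are RefSeq's for GRCr8.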

Additional observations from a re-analysis of the deposited data

How the results depend on the processing

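Of 420 log2 fold changes of the 5 genes under alternatives, 416 kept their side of the threshold, and the other 4 were Sgk1 in blast with time, described above. Differences that had not passed changed sign in 43 of the 420, and the values with the other sign reached up to 0.274 in absolute value. Directions of such small differences therefore carry no weight. The number of the 5 genes called in blast with time was 1 with edgeR, with DESeq2, with sample quality weights and without the 4 animals lowest on the component. Leaving out 1 animal at a time, it was 1 without CB121 and without CB139 and 0 in the other runs of 62. The first 4 settings also called more of all genes than the main fit, as given above. The correlation of Nr3c1 and Per1 was 0.016 with surrogate variables removed, the opposite sign, and -0.184 without the 4 animals. With surrogate variables removed, r was also 0.029 for Nr3c2 and Fkbp5, 0.193 for Fkbp5 and Per1, neither passing, and 0.625 for Sgk1 and Per1, which passed. That pair also passed with the library total removed (0.29), without the 2 libraries under 25000000 counts (0.372) and without the 4 animals (0.479). Nr3c1 and Sgk1 passed with the library total removed (0.309) and without the 2 libraries (0.334), and Nr3c1 and Fkbp5 passed with the library total removed (-0.307). Fkbp5 and Sgk1 no longer passed with number series means removed (0.282) or without AS601 (0.285). The cause was not tested. The receptor ratio passed in none of 24 alternative comparisons. No paired analysis was possible because each animal was measured once and the groups share no animal numbers. With these depths, counting error was not the limit, and the spread between animals set it.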

Other observations

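At the chronic time-point, Fkbp5 and Per1 had an r of 0.923 in 14 sham animals and of 0.106 in 14 blast animals. The difference had a permutation p of 0.00417 (100000 resamples with sham and blast labels permuted within the time-point, two-sided) and an adjusted p of 0.0834 over the 20 pairs and time-points compared, so it did not pass. Without the 4 animals lowest on the component the values were 0.87 in sham and 0.0537 in blast. At the sub-acute time-point they were 0.369 in sham and 0.292 in blast (adjusted p = 0.958). This comparison was chosen after seeing the data.

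CB124, the chronic blast animal with the highest Sgk1 of all (14490 counts, 362 CPM), was unremarkable for the other genes, with 115.2 CPM of Nr3c1, 49.9 of Nr3c2, 57.0 of Fkbp5 and 72.9 of Per1, all within the range of its group without it.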
